A study of Homo sapiens with 7 samples.

Results

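The cytoplasmic ribosomal protein genes were taken from a table that gives a splice index for each intron in each library. An intron was a member when its Ensembl gene had a symbol that starts with RPL or RPS and a digit, or was RPLP0, RPLP1, RPLP2 or RPSA, and RPS6K kinases were left out. This gave 92 introns of 54 genes, out of 6709 introns of 2979 genes with values. Of these, 83 introns belonged to 48 genes of core ribosomal proteins, 32 of the large subunit and 16 of the small subunit. A further 7 introns belonged to 4 genes for variant forms, RPL22L1, RPL36AL, RPL7L1 and RPS27L. The remaining 2 introns were of a pseudogene (RPL21P121) and of an antisense transcript (RPL30-AS1), and both were at an index of 0 in every library that had a value.

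The cytoplasmic ribosome has a small subunit, which reads the mRNA, and a large subunit, which joins amino acids, and each protein of either subunit is usually made from 1 expressed gene. Ribosomal protein genes are among the most strongly transcribed genes of growing cells, are short, and many carry small nucleolar RNAs inside their introns. An intron is removed after the splicing machinery pairs with the donor site at its start, recognises the polypyrimidine stretch and the acceptor site at its end, and joins the exons. The last intron of a gene is also known for being recognised together with the cleavage and polyadenylation site that follows it.

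Nascent RNA was measured in RPE1 cells, an immortalised human retinal pigment epithelial line. A pulse of 2 mM bromouridine (BrU) for 30 min marked new RNA, which was pulled down and sequenced as paired 151-bp reads. Every line had the background iCas9 p53/puro-dKO. The 3 groups were WT (3 libraries), CFAP20-KO, which lacks the cilia and flagella associated protein CFAP20 (3 libraries), and rescue, which is CFAP20-KO with CFAP20-GFP (1 library). The labels do not say whether libraries of a group came from separate cultures or clones, so p-values reflect differences among these libraries alone, and these can be technical. Of CFAP20 itself, 0 introns were in the table, so it does not check the labels here.

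The splice index runs from 0 to 1, and neither its formula nor the reads behind it are given, so no counting error can be set on a value. The sources used here also do not state that a higher index means more splicing, so values are given below as higher or lower index only. Introns of the Ensembl canonical transcript of member genes had a median index of 0.774 ± 0.098 over the WT libraries, against 0.531 ± 0.218 for introns listed for other transcripts (SD, n = 3). A number in the column names takes 3 values and is called a run here, although what it stands for is not given. WT 1 and CFAP20-KO 1 shared a run, WT 2 and rescue shared a run, and WT 3, CFAP20-KO 2 and CFAP20-KO 3 shared a run. Over all other genes, the library medians were lowest in WT 1 (0.529) and CFAP20-KO 1 (0.505) and between 0.640 and 0.721 in the other libraries. Of the retinal pigment epithelium genes RPE65, RLBP1, BEST1, MITF, TYR, PMEL and LRAT, 0 of 7 had an intron in the table, while 3 of 6 mesenchymal genes (VIM, FN1 and SPARC) and 2 of 5 epithelial genes (KRT8 and KRT18) did. Of the lists for other cells, 1 of 4 neuronal genes (TUBB3) and 0 of 4 haematopoietic genes had one.

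The introns below are examples with a lower and a higher index, chosen with their values known. All 6 are whole introns of at most 132 bp, read 5' to 3' on the gene's strand from hg38, with the GT of the donor and the AG of the acceptor in capitals. The first 3 are last introns with a low WT index, and the other 3 are internal introns with a high one. This choice itself sets last against internal introns. The first 3 are not the lowest members, and some internal introns were lower than RPS6 intron 5, such as RPL12 intron 5 at 0.292.
RPL21 intron 5, chr13:27256335-27256435, plus strand, 101 bp, mean WT index 0.199: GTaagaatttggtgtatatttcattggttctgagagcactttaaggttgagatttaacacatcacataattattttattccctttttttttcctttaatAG
RPL27 intron 4, chr17:43002784-43002871, plus strand, 88 bp, mean WT index 0.199: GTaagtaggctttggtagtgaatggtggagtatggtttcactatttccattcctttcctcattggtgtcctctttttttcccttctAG
RPS6 intron 5, chr9:19376389-19376493, minus strand, 105 bp, mean WT index 0.389: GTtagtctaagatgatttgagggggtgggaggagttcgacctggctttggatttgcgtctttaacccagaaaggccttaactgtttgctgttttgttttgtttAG
RPL4 intron 8, chr15:66500177-66500292, minus strand, 116 bp, mean WT index 0.960: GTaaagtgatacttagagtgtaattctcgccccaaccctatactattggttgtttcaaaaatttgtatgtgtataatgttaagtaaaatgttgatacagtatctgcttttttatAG
RPL28 intron 2, chr19:55386439-55386569, plus strand, 131 bp, mean WT index 0.954: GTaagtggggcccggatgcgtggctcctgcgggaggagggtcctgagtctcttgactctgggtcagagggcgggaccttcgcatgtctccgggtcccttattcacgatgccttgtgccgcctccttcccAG
RPS7 intron 2, chr2:3575685-3575816, plus strand, 132 bp, mean WT index 0.942: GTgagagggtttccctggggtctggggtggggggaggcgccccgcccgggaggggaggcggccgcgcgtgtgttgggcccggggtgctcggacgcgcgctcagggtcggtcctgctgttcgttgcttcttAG

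The 3 low introns had 76.5% to 100% pyrimidines in the 17 bases before the acceptor dinucleotide, and the 3 high ones 70.6% to 82.4%. Splice sites were also scored by log2 weight matrices over 9 bases at the donor and 23 at the acceptor. The matrices were built from introns of all other genes in the table that start with GT and end with AG. A higher score is nearer to the usual site of those introns. The donor of RPL27 intron 4 scored 11.8 and its acceptor 16.2, both above those of RPL4 intron 8, which scored 5.53 and 8.12. Other pairs went the other way: the donor of RPS6 intron 5 scored 8.27 and that of RPS7 intron 2 10.8, and their acceptors 10.3 and 9.32.

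The contrast was also seen within genes, and the sites of RPS4X, a small subunit protein with 5 introns in the table, and RPL21, a large subunit protein, show it. Each donor is printed with 3 exon bases before the intron, and each acceptor with 3 exon bases after it.
RPS4X intron 1 donor: atgGTaagc
RPS4X intron 1 acceptor: ttgcaatctaaaactttcAGgct
RPS4X intron 2 donor: tttGTaagt
RPS4X intron 2 acceptor: tatcatttttaacgttacAGgct
RPS4X intron 3 donor: tggGTaaga
RPS4X intron 3 acceptor: cggttactgcttgatttcAGatg
RPS4X intron 5 donor: ctgGTaagc
RPS4X intron 5 acceptor: gattatttcttcctgcctAGgta
RPS4X intron 6 donor: aagGTaagt
RPS4X intron 6 acceptor: ctgcttgttttctcttccAGggc
RPL21 intron 2 donor: atgGTaagt
RPL21 intron 2 acceptor: taccaaatttatttttgtAGgag
RPL21 intron 5 donor: cagGTaaga
RPL21 intron 5 acceptor: ctttttttttcctttaatAGcct

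In RPS4X the index of intron 3 was 0.894, 0.894 and 0.924 in WT 1 to 3, and that of the last intron, number 6, was 0.585, 0.471 and 0.694. The last intron was below intron 3 in all 3 WT libraries, although its donor (12.5) and acceptor (15.1) scored above those of intron 3 (6.97 and 6.63). The first intron of RPS4X was at 0.513, 0.821 and 0.684, and introns 2 and 5 averaged 0.889 ± 0.072 and 0.787 ± 0.054 (SD, n = 3). In RPL21, intron 2 was at 0.904, 0.954 and 0.900 and intron 5 at 0.205, 0.127 and 0.265. These 2 introns did not overlap in any library, CFAP20-KO and rescue included.

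Donors of ribosomal protein introns began with GTAAG (the first 5 bases of the intron, read on the gene's strand only) in 40.2%, against 22.7% of all other introns in the table. GTGAG began 26.1% and 31.96%, respectively. Among the 22 last introns GTAAG began 50% and GTGAG 18.2%. These shares describe the letters and were not tested.

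By position in the gene, medians over all listed ribosomal protein introns of the WT libraries ordered as internal, first and last. The median index of the 49 internal introns was 0.688, 0.892 and 0.815 in WT 1 to 3. The 21 first introns were at 0.494, 0.852 and 0.663. They include sole introns of their listed transcript, such as RPL39 intron 1, which lay 229 bp from the gene end. The 22 last introns were at 0.395, 0.506 and 0.548, below the internal introns of the same library in all 7 libraries. In CFAP20-KO 1 the first introns (0.393) were below the last ones (0.464). The last introns were lower than the internal ones by a gap of -0.315 ± 0.063 over the WT libraries (SD, n = 3), while in all other genes this gap was -0.120 ± 0.043. The gap in ribosomal protein genes was more negative than that in other genes in each of the 7 libraries, and ranged from -0.386 (WT 2) to -0.197 (CFAP20-KO 2), against -0.167 to -0.082.

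**Figure D1:**
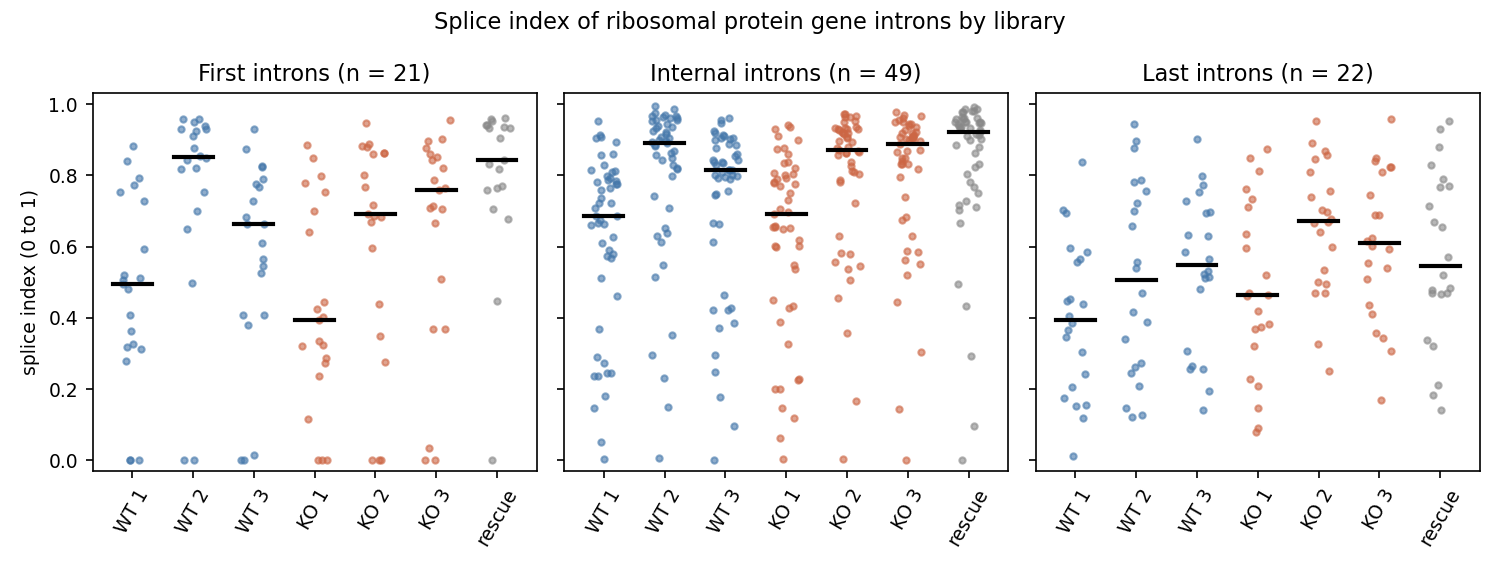
Splice index (vertical axis, 0 to 1) of each ribosomal protein intron in each library (horizontal axis), in panels for 21 first, 49 internal and 22 last introns; points are introns, black bars are medians. Internal introns crowd towards 1, and last introns spread over most of the scale with medians from 0.395 to 0.673.

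First introns stood higher in ribosomal protein genes than elsewhere in WT. In all other genes first introns were the lowest class, with medians of 0.235, 0.460 and 0.304 in WT 1 to 3, below the first introns of ribosomal protein genes in each of these libraries. Only 8 of the 21 first introns were of a canonical transcript, 2 of them those of the pseudogene and the antisense transcript, and their medians were 0.643, 0.925 and 0.754 in WT 1 to 3. The 41 canonical internal introns were at 0.724, 0.900 and 0.834, above the first introns in WT 1 and WT 3 and below them in WT 2. The pseudogene and the antisense transcript, at an index of 0, lower the medians of the first introns. Among canonical introns with values in all 7 libraries, which leaves both out, first introns were above internal ones on average over WT. The order of first and internal introns thus depends on which introns are counted.

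The low level of last introns was also present inside single genes. In 11 genes the table held the last intron and at least 1 earlier intron of the canonical transcript. Only RPL19 and RPS4X had more than 1 earlier intron, with 2 and 4. In the other genes the mean of the earlier ones is therefore a single intron, not the rest of the gene. The last intron was below the mean of the earlier ones in 11, 10 and 10 of 11 genes in WT 1 to 3, in 9, 10 and 10 in CFAP20-KO 1 to 3, and in 10 in rescue. RPS19, a small subunit protein whose gene is mutated in Diamond-Blackfan anaemia, was at 0.777, 0.974 and 0.861 for intron 2 and at 0.0135, 0.147 and 0.140 for its last intron, number 5. The exceptions were RPL27 in every library but WT 1, and RPS4X in CFAP20-KO 1, where its last intron was at 0.636 and the mean of the earlier ones at 0.611. RPL27, a large subunit protein, had intron 3 at 0.180, 0.231 and 0.178 and intron 4 at 0.156, 0.246 and 0.195.

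Distance from the intron to the annotated gene end gave a similar order, without using the intron number. Over the 66 canonical member introns that entered the tests, the rank correlation of this distance with the mean WT index was 0.54, against 0.14 over 5176 canonical introns of other genes. The 66 include the pseudogene RPL21P121. Distance was taken to the end of the whole annotated gene, not of the canonical transcript. By this measure the last introns of RPS4X and RPL14 lay 17094 and 6649 bp from the end. RPL12 intron 5, which is followed by 1 more intron, and RPL27 intron 3 lay 316 and 287 bp from the gene end and had mean WT indices of 0.292 and 0.196. Other internal introns near the end were high, with RPL19 intron 4 (764 bp) at 0.873, RPL6 intron 5 (849 bp) at 0.801 and RPS21 intron 2 (910 bp) at 0.899. These introns near the end were picked after their values were seen. Correlations are given as descriptions, because the introns share genes and libraries. Within the 41 internal introns it was 0.22, and within the 18 last introns 0.23, so most of the order lay between the classes.

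**Figure D2:**
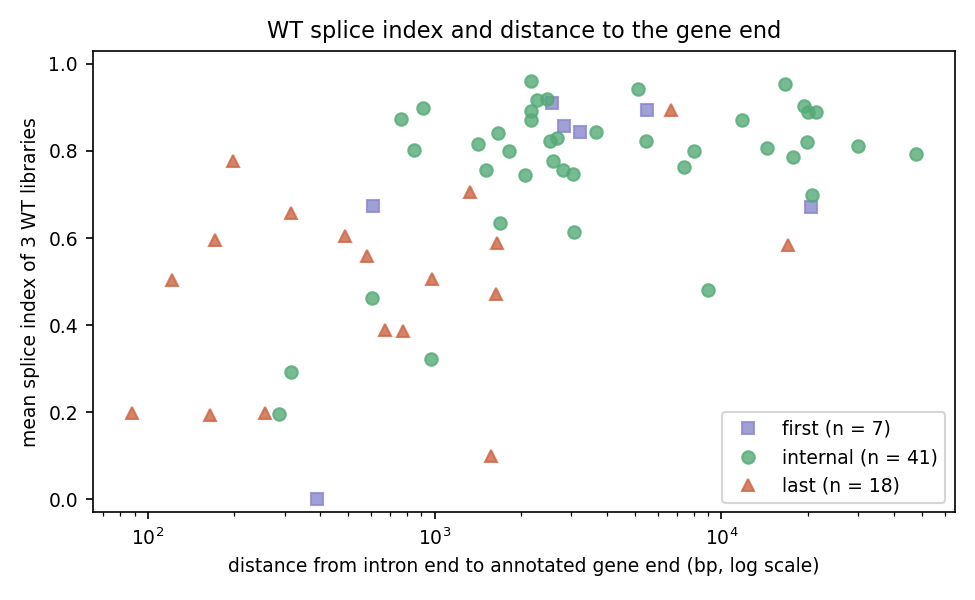
Mean splice index of the 3 WT libraries (vertical axis) against the distance in bp from the intron's end to the annotated gene end (horizontal axis, log scale) for 66 introns of canonical transcripts; squares are first, circles internal and triangles last introns. Internal introns within 1000 bp of the gene end fall into low ones, such as RPL12 intron 5 and RPL27 intron 3, and high ones, such as RPL19 intron 4 and RPS21 intron 2.

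Taken over all positions, length did not order the ribosomal protein introns in the same way in all WT libraries. They were short, with a median of 300.5 bp against 719 bp in other genes, and 67.4% were under 500 bp against 40.7%. The 62 introns under 500 bp had median indices of 0.603, 0.828 and 0.756 in WT 1 to 3, and the 30 longer ones 0.516, 0.850 and 0.675. The shorter introns were higher in WT 1 and WT 3 and lower in WT 2. Over canonical introns the rank correlation of length with the WT index was -0.06, and that of the donor score -0.07. That of the acceptor score was -0.17 and that of the pyrimidine share -0.30. The classes differed: the correlation of length was -0.28 within the 41 canonical internal introns and 0.31 within the 18 canonical last introns. The donor and acceptor scores were at 0.01 and 0.06 within these internal introns, and at -0.48 and -0.56 within these last introns. Internal introns under 500 bp had medians of 0.777, 0.894 and 0.817 in WT 1 to 3, above the longer internal ones at 0.576, 0.878 and 0.796, and were also above them in each CFAP20-KO library but not in rescue. The 18 last introns under 500 bp were below the 4 longer ones in each WT library and in rescue, and above them in each CFAP20-KO library. Short introns of canonical transcripts alone showed the gap between last and internal introns, at -0.343 ± 0.085 (SD, n = 3).

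Introns that hold a small nucleolar RNA could not be compared. The 52 protein-coding member genes have 246 canonical introns, of which 38 in 19 genes hold an annotated small nucleolar RNA on the same strand. Of these 38 introns, 0 were in the table, which held 65 of the 246, and 0 of all 6709 introns of the table held one. The values above therefore describe ribosomal protein introns without such RNAs.

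The highest WT indices were all in core genes. RPL4 intron 8 was at 0.953, 0.966 and 0.962 in WT 1 to 3 and at 0.937, 0.965 and 0.961 in CFAP20-KO 1 to 3. RPL28 intron 2 averaged 0.954 ± 0.041, RPS7 intron 2 0.942 ± 0.031, RPL21 intron 2 0.920 ± 0.030 and RPS26 intron 2 0.918 ± 0.064 in WT (SD, n = 3). RPS26 intron 2 of the listed transcript is intron 1 of the canonical one. In these 5 introns the WT and CFAP20-KO values overlapped.

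The lowest indices came from introns of minor transcripts and from last introns. RPS19 intron 3, of a transcript annotated as a target of nonsense-mediated decay, was at 0.00323, 0.00616 and 0.00234 in WT 1 to 3, and RPL30 intron 1 of a transcript without a defined coding sequence was at 0, 0 and 0.0153. RPL35 intron 3 and RPS19 intron 5 both averaged 0.10 in WT, with SDs of 0.049 and 0.075. RPL7A intron 6 of the listed transcript, which is the last of 7 in the canonical one, averaged 0.195 ± 0.10 (SD, n = 3). RPS19 also held 2 other introns outside its canonical transcript, intron 1 at 0.774 ± 0.174 and intron 4 at 0.693 ± 0.225 in WT. RPL7, a large subunit protein with 4 introns in the table, was at 0.507 ± 0.165 for intron 1, which is not canonical, and at 0.891 ± 0.055, 0.842 ± 0.058 and 0.817 ± 0.044 for introns 2 to 4.

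The comparison of CFAP20-KO with WT asks whether loss of CFAP20 goes with a change of splicing in nascent RNA. No ribosomal protein intron passed in limma (trend and robust empirical Bayes) with Benjamini-Hochberg adjustment over 6537 introns. It called 0 of 91 member introns with 6 values and 0% of all introns in either direction. The smallest adjusted p was 0.833 (0.853 among members). In simulated libraries, for introns with a mean index from 0.2 to 0.4, this fit recovered 0% of changes of 0.2. It recovered 14.3% of changes of 0.4 and 45% of changes of 0.6. The absence of calls therefore does not show that changes of about 0.2 are absent. With libraries centred on their medians as well as a replicate block, 0.26% of all introns were called higher and 0.26% lower, and with run and centring 0.551% and 0.367%, but 0 members in either. With an unadjusted limma p under 0.05, 4 members were higher and 0 lower, against 3.58% higher and 2.13% lower of all introns. The 4 became 0 without WT 1 or without CFAP20-KO 2, 1 without CFAP20-KO 3, 2 without WT 2 and 8 without CFAP20-KO 1. Over all 6537 introns the count higher moved too, from 234 to 132 without WT 1 and to 79 without CFAP20-KO 2. It was 101 without CFAP20-KO 3, 316 without WT 2 and 596 without CFAP20-KO 1. The 4 members became 15 with the run as a covariate, a fit in which WT 2 has no weight and 685 of all 6537 introns were higher. The median difference, CFAP20-KO mean minus WT mean, was 0.021 over the 91 members, of which 56 were higher, and 0 over all introns tested. This median rests on single libraries: it was -0.016 without WT 1, -0.002 without CFAP20-KO 3, 0 without CFAP20-KO 2 and 0.079 without CFAP20-KO 1. It was also 0.0033 when last introns were left out, a split made after the values were seen.

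The difference was spread unevenly over positions. Of the 22 last introns 19 were higher in CFAP20-KO, with a median difference of 0.11, while the last introns of other genes had a median of 0 with 427 of 872 higher. The 49 internal introns of ribosomal protein genes had a median difference of 0.007 with 30 higher, and the 20 first introns with 6 values -0.008 with 7 higher. The median of the last introns was 0.045 without WT 1 and 0.155 without CFAP20-KO 1, and 0.102 when each library was centred on its own median, where 18 were higher. WT 1 was the lowest library over the last introns (0.395) and CFAP20-KO 2 the highest (0.673), and the 2 groups of library medians overlapped, with 0.506 and 0.548 in WT 2 and WT 3 and 0.464 and 0.609 in CFAP20-KO 1 and CFAP20-KO 3. This class was singled out after its values were seen, and 0 of its introns passed the adjusted test in any fit.

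**Figure D3:**
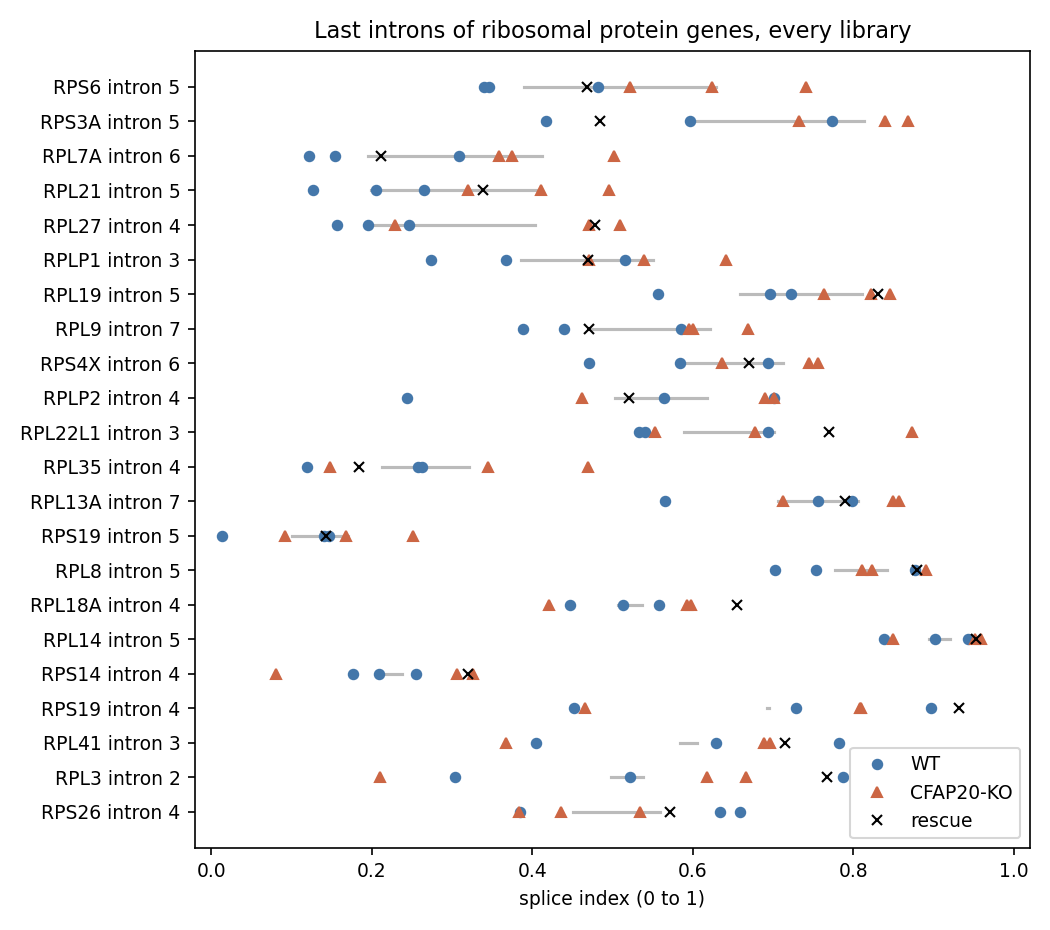
Splice index (horizontal axis, 0 to 1) of each of the 22 last introns of ribosomal protein genes, ordered by CFAP20-KO mean minus WT mean; circles are the 3 WT libraries, triangles the 3 CFAP20-KO libraries, crosses the rescue library, and grey lines join the WT and CFAP20-KO means. In the upper rows the triangles lie mostly to the right of the circles, without overlap in 5 introns.

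Groups did not overlap in 7 of 91 members (7.69%) with CFAP20-KO above WT, where 5.92% of all introns did, and in 1 member (1.10%) with CFAP20-KO below, where 5.14% did. Of the 7 above, 5 were last introns. RPS6, the small subunit protein phosphorylated by the S6 kinases, had its last intron (number 5) at 0.346, 0.340 and 0.482 in WT 1 to 3, at 0.522, 0.741 and 0.624 in CFAP20-KO 1 to 3 and at 0.469 in rescue. All CFAP20-KO libraries were above all WT libraries, and rescue lay among WT. Against WT 2, the WT library of its run, rescue was higher by 0.129. The difference of 0.240 (SE 0.088) had an adjusted p of 0.853 by limma, so it did not pass.

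RPL7A intron 6 was at 0.154, 0.122 and 0.309 in WT, at 0.375, 0.502 and 0.358 in CFAP20-KO and at 0.211 in rescue. Its groups were apart by the small step from WT 3 to CFAP20-KO 3, both of 1 run. Rescue again lay among WT, but was higher than WT 2 of its run by 0.090. RPL21 intron 5 was at 0.205, 0.127 and 0.265 in WT, at 0.320, 0.495 and 0.411 in CFAP20-KO and at 0.338 in rescue. Here rescue lay among CFAP20-KO, above every WT library. RPL9 intron 7, of a large subunit protein, was at 0.440, 0.388 and 0.585 in WT and at 0.595, 0.669 and 0.601 in CFAP20-KO. It was at 0.471 in rescue, which was within WT, but higher than WT 2 of its run by 0.082. RPL19, a large subunit protein that takes part in a bridge between the subunits, had intron 5 at 0.556, 0.723 and 0.697 in WT, at 0.763, 0.846 and 0.823 in CFAP20-KO and at 0.830 in rescue, which was within CFAP20-KO.

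RPL12 intron 5, the last but 1 of its gene, was at 0.273, 0.352 and 0.250 in WT, at 0.451, 0.457 and 0.446 in CFAP20-KO and at 0.494 in rescue. Its 3 CFAP20-KO values lay close together above WT, and rescue was above them all. RPL12 lies at the base of the ribosomal stalk, and the difference of 0.159 (SE 0.065) had an adjusted p of 0.853 by limma. The adjusted p was between 0.853 and 0.892 for the 6 introns with the largest differences of this kind. The seventh was RPL7 intron 4, where the difference was 0.077.

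Among the other last introns, RPL27 intron 4, RPS3A intron 5 and RPLP1 intron 3 also had large differences, and they are named after their values were seen. RPL27 intron 4 was at 0.156, 0.246 and 0.195 in WT and at 0.229, 0.471 and 0.509 in CFAP20-KO, so that CFAP20-KO 1 lay inside the WT range. RPS3A intron 5 was at 0.596, 0.418 and 0.773 in WT and 0.733, 0.868 and 0.840 in CFAP20-KO. RPLP1, an acidic protein of the ribosomal stalk, was at 0.368, 0.274 and 0.516 in WT and 0.471, 0.641 and 0.540 in CFAP20-KO. In both, CFAP20-KO 1 overlapped WT 3. RPS26 intron 4 was the last intron with the most negative difference, at 0.385, 0.659 and 0.634 in WT and 0.383, 0.534 and 0.436 in CFAP20-KO.

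The member with CFAP20-KO below WT without overlap was RPL22L1 intron 1, of the variant form of RPL22. It was at 0.408, 0.499 and 0.409 in WT, at 0.274, 0.350 and 0.369 in CFAP20-KO and at 0.448 in rescue. Rescue lay within WT, with a difference of -0.051 from WT 2 of its run. The difference of -0.108 (SE 0.069) between CFAP20-KO and WT had an adjusted p of 0.912 by limma. The intron is not of the canonical transcript of this gene.

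Within runs, last introns of ribosomal protein genes were higher than WT in each CFAP20-KO library and in rescue. The median difference was 0.091 for CFAP20-KO 1 minus WT 1 (17 of 22 introns positive) and 0.118 for CFAP20-KO 2 minus WT 3 (21 of 22). It was 0.063 for CFAP20-KO 3 minus WT 3 (21 of 22) and 0.075 for rescue minus WT 2 (16 of 22). In the last introns of other genes the same medians were 0, 0.010, 0.004 and 0.009. Internal introns of ribosomal protein genes were at 0, 0.060, 0.064 and 0.018, with 24, 48, 46 and 34 of 49 positive, so that in CFAP20-KO 3 the last introns were not set apart from the internal ones. With the run as a covariate, a fit in which WT 2 has no weight, the median difference over all members was 0.036, with 71 of 91 higher. The 2 differences in the run of WT 3 share that WT library and are not independent. Rescue, which carries CFAP20-GFP, was also above its WT library, and with 1 rescue library no test of rescue could be made.

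**Figure D4:**
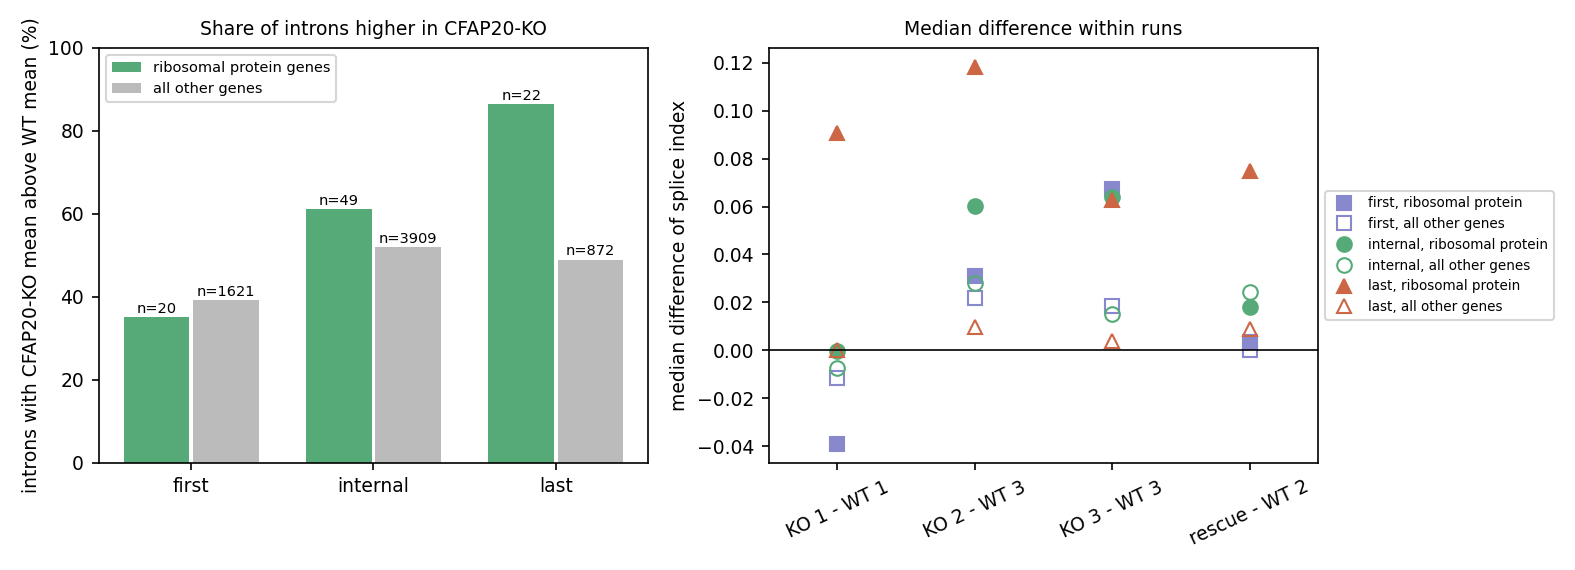
Left, the share of introns (%) whose CFAP20-KO mean is above the WT mean, for first, internal and last introns of ribosomal protein genes (green) and all other genes (grey), with the number tested above each bar; right, the median difference of splice index within each run for the same classes (filled, ribosomal protein; open, other genes). Last introns of ribosomal protein genes are at 86.4% on the left and between 0.063 and 0.118 on the right.

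The 51 introns of large subunit genes had a median difference of 0.034 with 36 higher, and the 32 of small subunit genes 0.001 with 16 higher. The 7 introns of variant forms had 0.001 with 4 higher. The subunits were not tested against each other. In the rank correlation over the 66 canonical members, the difference was larger nearer to the gene end, at -0.47, against -0.10 over other genes. Within the 41 internal introns this correlation was -0.31, and within the 18 last introns -0.38. It overlaps with the split into last and internal introns, which was singled out after the values were seen. The mean WT index, which enters the difference, itself correlated with this distance at 0.54.

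Other genes of translation and ribosome assembly were set beside them from lists. Of 26 translation factors and related genes whose mRNAs start with a terminal oligopyrimidine tract, as ribosomal protein mRNAs do, 20 had introns in the table, and their 105 introns had a median difference of 0.033 with 77 higher. Of 34 ribosome assembly genes 22 had introns, and their 66 introns had a median of 0.055 with 53 higher. The 58 tested introns of mitochondrial ribosomal proteins, which belong to another ribosome, had a median of -0.014 with 26 higher. In all 3 lists 0 introns passed limma's adjusted test. The last introns of these lists were few, with 5 in the first list at a median of 0.032, 7 in the second at 0.076 and 16 in the third at -0.026.

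Nascent transcription itself could be read for 3 of the 54 genes, from the signal of windows around replication origins in the 3 WT and 3 CFAP20-KO libraries. In bulk RNA, fewer transcribing cells and less RNA per cell cannot be told apart. The mean gene body signal of RPS14, a small subunit protein, was 224.2, 118.5 and 208.4 in WT 1 to 3 and 143.2, 132.2 and 133 in CFAP20-KO 1 to 3. WT 2 lay below every CFAP20-KO library, and the other 2 WT libraries above them. RPL9 was at 106.4, 122.7 and 134.7 in WT and 64.3, 106.6 and 108.2 in CFAP20-KO, and RPL6 at 37.9, 31.7 and 40.4 and at 30.4, 38.5 and 37.1. On the log2(signal + pseudocount) scale the changes were -0.38 (SE 0.34), -0.42 (SE 0.32) and -0.05 (SE 0.27) for RPS14, RPL9 and RPL6, while the median over 1121 genes was 0.13. None of the 3 passed limma with Benjamini-Hochberg adjustment, with adjusted p of 0.876, 0.876 and 0.997, and 0% of all genes did in either direction. With the run as a covariate, an alternative added after the data were seen in which WT 2 has no weight, the change of RPS14 was -0.65 with an adjusted p of 0.0558, and 2.59% of genes were called higher and 4.28% lower. With a replicate block 2.23% of genes were called higher and 1.52% lower, and 0 of the 3 members. When 1 library was left out, the change of RPL9 ranged from -0.54 to -0.17 and that of RPS14 from -0.67 to -0.21.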

How the data were processed

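BrU-labelled nascent RNA of 7 libraries (3 WT, 3 CFAP20-KO, 1 rescue) was analysed. The deposited splice index is a fraction from 0 to 1 per intron, made by the authors, and the sources used here do not give its formula or depth. The build was hg38 and the aligner named is STAR 2.7.7a, beside SAMtools 1.11 and HOMER 4.8.2, per the submitters' processing notes, which give no order or parameters here. Ribosomal protein genes have many processed pseudogenes, and how reads matching several places were treated is not given. The authors' deposited differences between index columns equalled the differences computed here to within 3.8e-08.

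The members and gene lists were chosen with earlier results of these data known. Symbols, intron numbers and canonical transcripts came from GENCODE 44. After a start shift of 1 bp, 6676 of 6709 introns matched an annotated intron, and 10 introns had a gene ID with no symbol. First and last introns follow the listed transcript, and where that transcript was not in the annotation, the canonical one. The sole intron of a listed transcript was counted as first and not as last. The index was compared with limma 3.58.1 in R 4.3.3 (trend, robust; statmod 1.5.0) over the 6537 introns that had an index in each of the 6 libraries of WT and CFAP20-KO, with Benjamini-Hochberg adjustment at 0.05. Named introns were the 5 highest and 5 lowest in mean WT index among members with values in all 7 libraries, the 6 largest differences in each direction without overlap between groups (1 existed below WT), and all introns of the 3 genes with most introns. Splice site scores used an offset of 0.5 per base. Scripts were tested on simulated data.

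The deposited signal (coverage in bins of 200 bp within 100 kb of origin centres, scaled by the authors in a way not given in the sources used here) was averaged over gene bodies of at least 2000 bp with no coding neighbour within 2000 bp on the same strand. This located 1327 genes, 1121 with a mean of at least the pseudocount of 0.0251 were tested, and no rescue values of this kind were analysed here. Windows around start sites were not used, since they carry no gene names.

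Deviations from group means correlated at 0.508, 0.207 and 0.214 between WT and CFAP20-KO libraries with the same replicate number. All were above the limit of 0.1, so the numbers were taken as pairs for the replicate block. Such deviations cancel out within a group, so a high value for pair 1 raises those among libraries 2 and 3 however they are paired. Pairs 1 and 3 also share a run, and pair 2 does not. Libraries with different numbers correlated as much, with 0.250 for WT 3 and CFAP20-KO 2 and 0.219 for WT 2 and CFAP20-KO 3, so the values do not single out pairs 2 and 3. CFAP20-KO 2 and 3 were the most alike libraries (r = 0.966 across introns).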

Additional observations from a re-analysis of the deposited data

How the results depend on the processing

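In 16 alternatives to the fit of the splice index, 0 member introns were called in each. Over all introns, calls were 0 except with the replicate block and centred libraries together (34) and with run and centred libraries together (60). The replicate block, which takes libraries of the same number as pairs, left the median difference of members at 0.021 and changed no other call. On the logit scale that median was 0.168, in logit units. Leaving out 1 library gave -0.016 to 0.079 for the members and 0.045 to 0.155 for the last introns. Other alternatives on the index scale gave 0.076 to 0.122 for the last introns. The introns named for their difference were chosen for groups that do not overlap or for large values, so the sign of their alternatives shows nothing about stability.

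The gap between last and internal introns in WT was -0.229 by means over introns in place of medians. The gap between first and internal introns was 0.026 with canonical introns that have values in all 7 libraries, against -0.123. The difference between short and long introns was -0.0088 with 1 value per gene and class, against 0.059. The values of -0.123 and 0.059 are over members with values in all 7 libraries. Over all members, as in the medians given above, they were -0.128 and 0.049. The body signal change of RPL6 ranged from -0.156 to 0.0501 when 1 library was left out. The alternatives for small nucleolar RNAs gave no value. Depth per intron is unknown, so the precision of a single index cannot be given, and the difference within last introns, the canonical-only values and the run covariate for body signal were added after the data were seen.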
